A study of Mus musculus with 42 samples.

Results

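The livers of 12 mice, 6 given corticosterone and enzalutamide together (the CORT_ENZA group, here the combination) and 6 given vehicle, were compared in the acute arm of a study of 42 liver libraries. They were chosen by their sample titles, not by any measured value, and the 6 acute CORT and 6 acute ENZA mice of the same arm served as the single-drug reference. All were male C57B6/J mice with no genetic change named in the labels. Vehicle mice received neither drug, CORT mice corticosterone, ENZA mice enzalutamide and CORT_ENZA mice both, and the sources used here give no dose, route, age or hours of treatment. Each library was made from the mRNA of 1 snap-frozen liver with a stranded protocol and sequenced as paired ends, per the labels, and the authors deposited raw counts of reads for every gene.

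Corticosterone is the main glucocorticoid of mice. It binds the glucocorticoid receptor (gene Nr3c1), which moves to the nucleus and switches on genes such as Fkbp5, a cochaperone that restrains steroid receptors, and the glucocorticoid leucine zipper gene Tsc22d3. Enzalutamide is an antiandrogen drug. The liver also clears steroids and drugs through cytochrome P450 enzymes, whose genes are controlled by the xenobiotic receptors CAR (gene Nr1i3) and PXR (gene Nr1i2), and it makes cholesterol through enzymes controlled by the transcription factor SREBP-2. The comparison asks what both drugs together change in the liver, and whether that change is the sum of what each drug changes alone.

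Acute libraries held 18674151 to 20464521 gene counts. The combination had fewer gene counts than vehicle (means of 19152231 and 19958262), fewer detected genes (19227 and 19681) and a larger mitochondrial share (9.21 ± 1.2% against 7.77 ± 0.8%, mean ± SD, n = 6 each), each with an adjusted p of 0.0325 in a two-sided exact permutation test over 5 such measures. The part of these differences in the results was not tested. Vehicle mouse L19A and combination mouse L36A stood apart on the second principal component (45.2 and 34.8, against -21.5 to 18.3 for the other acute mice), and their deviations from their own group means correlated at r = 0.72 over 13733 genes, against at most 0.425 in the 215 other pairs of mice from different groups. Calls of the genes named below that were lost without these 2 mice are given beside them. Defining hepatocyte genes such as Alb and Apoa1 were abundant in every library, and the 7 hepatocyte markers measured summed to 94261 to 116114 CPM in the combination and 95158 to 142463 CPM in vehicle (CPM is the count relative to the TMM-scaled library size). Nr3c1 did not pass the test and differed by 0.14 ± 0.12 (log2 ± SE, adjusted p = 0.639).

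Acute combination treatment raised 11 of 27 CAR and PXR target genes and 9 of 26 cholesterol synthesis genes. It also raised 6 of 24 glucocorticoid-induced genes and 2 of 14 lipid droplet genes. No member of these lists was called lower, and list members counted as rising or falling are those called. The lowest log2 estimates in the 4 lists, in that order, were -2.37, -0.08, -0.72 and -0.11. The edgeR quasi-likelihood test called 339 of 13733 genes (2.47%) at an adjusted p under 0.05, 195 higher (1.42%) and 144 lower (1.05%), and in 77 the log2 change was 1 or more in size. In 165 of the 339 (48.7%) the 6 combination mice did not overlap the 6 vehicle mice, beside 1.81% of all genes tested. Without L19A and L36A 328 genes were called, of which 245 were among the 339. The count fell to 207 without combination mouse L24A, to 218 without vehicle mouse L25A and to 221 without vehicle mouse L1A.

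The single-drug groups differed widely from each other, and the contrast between them compares no mouse that is compared in combination against vehicle. Both contrasts came from the same fit of all acute libraries, however, so they share each gene's estimate of spread and are not independent. CORT and ENZA differed in 1099 genes, 542 higher in CORT (3.95%) and 557 higher in ENZA (4.06%), and in 709 genes without CORT mouse L26A. Of the 195 genes raised by the combination, 50 (25.6%) were higher in CORT than in ENZA and 29 (14.9%) higher in ENZA than in CORT. The other 116 were called in neither direction. Of the 144 genes lowered, 33 (22.9%) were higher in ENZA and 6 (4.17%) higher in CORT. Read the other way, 50 of the 542 genes higher in CORT rose in the combination (9.23%) and 486 were not called. Of the 557 genes higher in ENZA, 29 rose (5.21%), 33 fell (5.92%) and 495 were not called. Most genes on which the single drugs differed were thus not called with both, which does not show that they stood at the vehicle level. The shares called in either direction were 10.3% of those higher in CORT and 11.1% of those higher in ENZA. Over all genes tested the share was 2.47%. The part of the shared estimate of spread in these shares was not tested.

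Of 27 CAR and PXR target genes tested, 11 rose and 0 fell with the combination, with a median log2 change of 0.41 beside -0.01 over all genes tested. The observed change was below the sum of the single-drug changes in 24 of the 27 (median departure -0.19). Without L19A and L36A it was below in 26 of 27 (median -0.22). None of these departures passed the test in the fit of all acute libraries. Cyp2c55, a cytochrome P450 of fatty acid and drug oxidation (ENSMUSG00000025002, chromosome 19, 39007019 to 39042693 in GRCm38), ranged over 32.8 to 73 CPM (median 49.9) in the combination and 6.13 to 16.7 CPM (median 9.6) in vehicle. It ranged over 5.75 to 16.4 CPM (median 9.4) in CORT and 37.5 to 78.5 CPM (median 62.2) in ENZA. The combination and ENZA mice thus overlapped each other, and all lay above every vehicle and CORT mouse. The log2 change was 2.26 ± 0.28 (adjusted p = 7.24e-05), and the sum of the single-drug changes was 2.60.

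Cyp2c29 (ENSMUSG00000003053, chromosome 19, 39269405 to 39330713 in GRCm38), a major constitutive P450 of mouse liver, ranged over 2510.4 to 4122 CPM (median 2782) with both drugs, 2821 to 4014 CPM (median 3191) with ENZA, 1022 to 1500.00 CPM (median 1219.6) with CORT and 843 to 1466 CPM (median 1274) with vehicle. The pattern was that of Cyp2c55, 2 high groups and 2 low groups that did not overlap. It rose by 1.29 ± 0.14 (adjusted p = 3.78e-06). Cyp3a11 (ENSMUSG00000056035, chromosome 5, 145854426 to 145879964 in GRCm38), the mouse counterpart of the main human drug-clearing P450, ranged over 7362 to 10701 CPM (median 8676) in the combination and 1808 to 5269 CPM (median 3296) in vehicle, again without overlap. It rose by 1.39 ± 0.20 (adjusted p = 0.000206), where CORT alone differed from vehicle by 0.21 and ENZA alone by 1.30. On the linear scale, the sum of both single-drug differences added to vehicle would be 8911 CPM, and the observed mean was 8933 CPM.

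Cyp2b10 (ENSMUSG00000030483, chromosome 7, 25897620 to 25926624 in GRCm38), the classical CAR target, had the largest rise of the genes named here. It ranged over 43.7 to 219 CPM (median 53.3) in the combination, 17.9 to 137 CPM (median 57.6) in ENZA, 15.6 to 44.7 CPM (median 24.3) in CORT and 1.73 to 22.5 CPM (median 10.2) in vehicle. The combination lay above vehicle in all 6 mice but spread widely, and it overlapped both single-drug groups. It rose by 3.10 ± 0.60 (adjusted p = 0.00725) against a log2 sum of 4.05, a departure of -0.95 ± 0.79 with a 95% interval of -2.60 to 0.69. On the linear scale its mean of 90.9 CPM lay above the sum of 85.3 CPM, so the sign of the departure turns with the scale.

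The PXR gene itself, Nr1i2 (ENSMUSG00000022809, chromosome 16, 38248323 to 38294824 in GRCm38), was lowest in vehicle and had its highest median in the combination. It ranged over 60.7 to 71.9 CPM (median 69.8) in vehicle, 79.2 to 105 CPM (median 86.5) in CORT, 96.4 to 112 CPM (median 103) in ENZA and 102 to 130.1 CPM (median 120.5) in the combination. Vehicle mice lay below all others, and the combination overlapped the upper end of both single-drug ranges. The change was 0.79 ± 0.08 (adjusted p = 5.64e-07), that of CORT against vehicle was 0.36 ± 0.08 (adjusted p = 0.0103) and that of ENZA 0.60 ± 0.08 (adjusted p = 3.88e-05). Its observed mean of 119 CPM compares with a linear sum of 123 CPM. The CAR gene Nr1i3, named after its values were seen, was not called (-0.50 ± 0.21, adjusted p = 0.221).

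The other CAR and PXR members that rose were Por, the reductase that passes electrons to P450 enzymes (0.83 ± 0.13, adjusted p = 0.000469), the sulfotransferase gene Sult1d1 (not called without L19A and L36A), the P450 genes Cyp3a25 and Cyp2c50, the glutathione transferase gene Gstm3 and the carboxylesterase gene Ces2a. Ces2a ranged over 597 to 709 CPM (median 647) in the combination and 309 to 379 CPM (median 361) in vehicle, with no overlap, and rose by 0.89 ± 0.08 (adjusted p = 5.64e-07). Gstm3 ranged over 182 to 401 CPM (median 241) in the combination, 62.1 to 105 CPM (median 97.1) in vehicle and 208 to 1764 CPM (median 329) in ENZA. It rose by 1.56 ± 0.41, but its adjusted p of 0.0444 became 0.119 without L19A and L36A, and the call was lost in 19 of the 32 other settings. Of the 50-base stretches of the longest transcript, 22.2% of Ces2a and 28.8% of Gstm3 also occur in another gene, so the counts of both are uncertain. The same holds for Cyp3a59 (28% shared), which is not on the list and rose by 1.87 ± 0.31 (adjusted p = 0.00173).

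**Figure D1:**
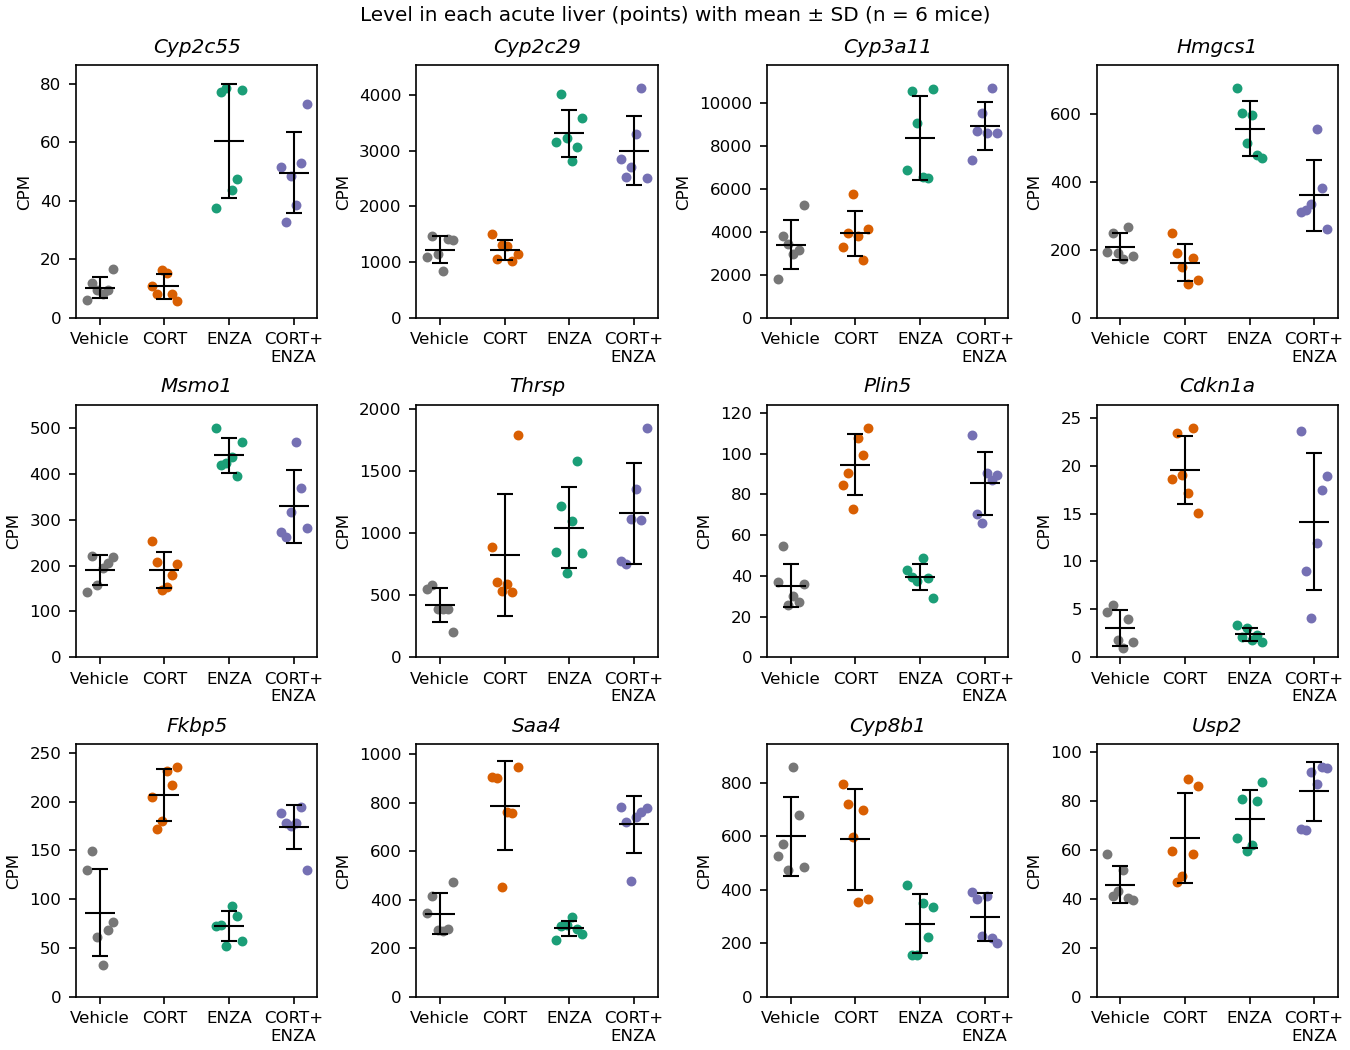
Level of 12 genes in each acute liver, in CPM on a linear axis from 0, by group; points are single mice and bars are mean ± SD (n = 6). Cyp2c55 and Cyp2c29 are high in both groups given ENZA, Plin5, Fkbp5 and Saa4 in both groups given CORT, and Hmgcs1 is highest in ENZA alone.

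Of 26 cholesterol synthesis genes tested, 9 rose and 0 fell, with a median of 0.36. The list stood higher still in ENZA alone, at a median of 0.70 against vehicle, and at -0.08 in CORT. Hmgcs1 encodes the cytosolic HMG-CoA synthase at the entry of the pathway and lies on chromosome 13 from 119690379 to 119708260 in GRCm38 (ENSMUSG00000093930). The 250 bases before its start in RefSeq (GRCm38.p6, chr13:119690101-119690350, plus strand) are shown because they hold the letters TCACNCCAC, the sterol element bound by SREBP proteins, in capitals.
Hmgcs1: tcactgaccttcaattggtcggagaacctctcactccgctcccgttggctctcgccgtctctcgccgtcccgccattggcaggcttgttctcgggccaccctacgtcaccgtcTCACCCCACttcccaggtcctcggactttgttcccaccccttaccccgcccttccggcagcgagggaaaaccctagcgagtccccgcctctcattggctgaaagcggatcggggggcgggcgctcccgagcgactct
The match begins 137 bases before the start. TCACNCCAC was searched on both strands and occurs in 331 of 27025 genes' windows of this length (1.22%), and in 1 of the 18 cholesterol genes with an entry, Hmgcs1. It is the longest of 4 overlapping spellings searched, chosen for printing after all 4 results were seen. TCACNCCA occurs in 4.2% of genes' windows and in 3 of the 18 (Hmgcs1, Msmo1 and Srebf2), CACNCCAC in 6.05% and in 3 (Acat2, Hmgcs1 and Insig1), and CACCCCAC in 2.98% and in 2 (Acat2 and Hmgcs1). A match of letters is a description of the window and not evidence of binding.

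Hmgcs1 transcripts ranged over 262 to 557 CPM (median 326) in the combination and 173 to 268 CPM (median 192) in vehicle. They ranged over 472 to 677 CPM (median 557) in ENZA and 101 to 249 CPM (median 162) in CORT. All but 1 combination mouse lay below every ENZA mouse, and the combination overlapped vehicle at its lower end. Hmgcs1 rose by 0.78 ± 0.19 with the combination (adjusted p = 0.0238), and ENZA differed from vehicle by 1.41 and CORT by -0.37. The call was lost in 5 of 32 other settings, with an adjusted p of up to 0.0799 (no filter on low counts).

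Msmo1 (ENSMUSG00000031604, chromosome 8, 64718139 to 64733792 in GRCm38), a demethylating oxidase late in the pathway, ranged over 264 to 471 CPM (median 299) in the combination, 396 to 501 CPM (median 429.98) in ENZA, 147 to 254 CPM (median 191) in CORT and 143 to 222 CPM (median 200.1) in vehicle. Combination mice lay above all CORT and vehicle mice and, in 5 of 6 cases, below all ENZA mice. It rose by 0.79 ± 0.14 (adjusted p = 0.00249), against a sum of 1.21. Mvk, the mevalonate kinase gene, rose by 0.55 ± 0.12 (adjusted p = 0.0147, and 0.0532 without combination mouse L24A) and matched its sum of 0.56 closely. The squalene synthase gene Fdft1 rose by 0.62 ± 0.11 (adjusted p = 0.00173). Of its 50-base stretches 10.9% also occur in another gene, so its count is uncertain. The remaining genes called were Sqle (squalene epoxidase, 0.82 ± 0.19), Hsd17b7 (0.80 ± 0.18), Cyp51 (0.57 ± 0.14), Nsdhl (0.47 ± 0.13) and Dhcr7 (0.42 ± 0.11), with adjusted p of 0.0167, 0.0175, 0.028, 0.0453 and 0.0484. Dhcr7 was not called without L19A and L36A.

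Not every gene of the list that was high in ENZA was called in the combination. Mvd, the mevalonate diphosphate decarboxylase gene, ranged over 34.3 to 58.6 CPM (median 46.9) in ENZA and 14.7 to 48.6 CPM (median 20.7) in the combination, against 12.8 to 27.1 CPM (median 19.3) in vehicle (0.38 ± 0.22, adjusted p = 0.428). The departure from the sum was below 0 in 25 of the 26 genes (median -0.23), and in 21 without L19A and L36A (median -0.13). None of the 26 departures passed the test, for which the smallest adjusted p over all genes was 0.994, and 2 had an unadjusted p under 0.05.

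Of 20 fatty acid synthesis genes tested, 1 rose and 0 fell, with a median of -0.13 in the combination and 0.42 in ENZA. The gene that rose, Thrsp (ENSMUSG00000035686, chromosome 7, 97412938 to 97417730 in GRCm38), encodes a regulator of lipogenesis. It ranged over 754 to 1850.5 CPM (median 1114) in the combination, 677 to 1583 CPM (median 976) in ENZA, 527 to 1788 CPM (median 599) in CORT and 204 to 581 CPM (median 392) in vehicle. Every combination mouse lay above vehicle, and the 3 treated groups overlapped. The change was 1.47 ± 0.31 (adjusted p = 0.0114, and 0.0615 without L19A and L36A) against a sum of 2.30. Fasn, the fatty acid synthase gene, named after its values were seen, had means of 1116 CPM in vehicle, 844 in CORT, 2008 in ENZA and 886 in the combination (-0.33 ± 0.29, adjusted p = 0.625). The departure was below 0 in 18 of the 20 genes (median -0.43), and in all 20 without the 2 mice.

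Of 24 glucocorticoid-induced genes, 6 rose and 0 fell, with a median of 0.46 in the combination and 0.54 in CORT. Cdkn1a, the gene of p21, an inhibitor of cell division, ranged over 4.15 to 23.6 CPM (median 14.6) in the combination, 15 to 24 CPM (median 18.8) in CORT, 1.63 to 3.39 CPM (median 2.21) in ENZA and 0.986 to 5.45 CPM (median 2.89) in vehicle. CORT mice lay clear of both groups without corticosterone, while the combination spread from the vehicle range up to the CORT range. It rose by 2.19 ± 0.37 (adjusted p = 0.00179) against a sum of 2.29. Fkbp5 ranged over 129.7 to 195 CPM (median 178) in the combination and 32.7 to 149 CPM (median 72.2) in vehicle, with an overlap, and rose by 1.01 ± 0.24 (adjusted p = 0.0221, and 0.0831 with only the 2 compared groups in the fit). Its departure was 0.01 ± 0.33.

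Zbtb16, a zinc finger repressor, rose by 1.65 ± 0.35 (adjusted p = 0.0125) and Lpin1, a phosphatidate phosphatase of triglyceride synthesis, by 1.30 ± 0.27 (adjusted p = 0.00967). Angptl4, an inhibitor of lipoprotein lipase, rose by 0.99 ± 0.23 (adjusted p = 0.0207) but was not called without L19A and L36A. Tsc22d3 ranged over 35.3 to 78.5 CPM (median 54) in CORT, 27.7 to 54.5 CPM (median 35) in ENZA, 31.6 to 49.3 CPM (median 41.5) in the combination and 23 to 39 CPM (median 29.5) in vehicle. The combination overlapped all 3 other groups. Its change of 0.43 ± 0.17 was not called (adjusted p = 0.192), and it lay -0.69 ± 0.24 from the sum of 1.12 (unadjusted p = 0.00809). Per1, a clock gene that glucocorticoids induce, differed by -0.06 ± 0.31 (adjusted p = 0.948).

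Both lipid droplet genes called rose, of 14 tested (median 0.14). Plin5 (ENSMUSG00000011305, chromosome 17, 56111601 to 56117596 in GRCm38), a coat protein of lipid droplets, ranged over 66 to 109 CPM (median 88.3) in the combination and 72.6 to 113 CPM (median 94.9) in CORT, against 29 to 48.9 CPM (median 39.2) in ENZA and 25.9 to 54.6 CPM (median 33.1) in vehicle. The groups with corticosterone overlapped each other and lay above both groups without it. It rose by 1.28 ± 0.16 (adjusted p = 5.66e-05), and its relative Plin4 by 1.35 ± 0.28 (adjusted p = 0.00961). Both groups given corticosterone also had the higher medians in Saa4 (ENSMUSG00000040017, chromosome 7, 46727998 to 46732603 in GRCm38), a constitutive serum amyloid A apolipoprotein and the only one of 20 acute phase genes called. Saa4 ranged over 479 to 783 CPM (median 751) in the combination and 271 to 473 CPM (median 312) in vehicle, without overlap, and rose by 1.05 ± 0.16 (adjusted p = 0.000482). Over that list the median was 0.33 and the departure was above 0 in 16 of 20 genes (median 0.35).

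Scara5 (ENSMUSG00000022032, chromosome 14, 65666403 to 65764826 in GRCm38), a ferritin receptor on the glucocorticoid list, rose with CORT (adjusted p = 0.0234), while its ENZA estimate of -1.26 did not pass the test (adjusted p = 0.124). It ranged over 9.53 to 42.8 CPM (median 35.4) in CORT, 1.48 to 7.21 CPM (median 3.63) in ENZA, 19.5 to 45.5 CPM (median 39.1) in the combination and 3.65 to 17.2 CPM (median 9.67) in vehicle. The combination overlapped CORT and lay above all vehicle and ENZA mice. It rose by 1.81 ± 0.36 (adjusted p = 0.00824) where the sum was 0.35, a departure of 1.46 ± 0.52 (95% interval 0.38 to 2.55, unadjusted p = 0.0104, adjusted p = 0.994).

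Other genes with wide gaps between CORT and ENZA lay between both in the combination. Serpina4-ps1, an unprocessed pseudogene of the serpin cluster (ENSMUSG00000092075, chromosome 12, 104080649 to 104086724 in GRCm38), ranged over 208 to 1195 CPM (median 917) in CORT, 18.6 to 65.9 CPM (median 33.7) in ENZA, 177 to 766 CPM (median 449) in the combination and 52.3 to 367 CPM (median 161) in vehicle. ENZA mice lay below all combination mice, which overlapped vehicle and CORT. Its combination change was 1.34 ± 0.50 (adjusted p = 0.168) beside a sum of -0.17. The metallothionein gene Mt1, which encodes a zinc-binding protein, ranged over 32 to 131 CPM (median 46.8) in ENZA, 220.1 to 332 CPM (median 292) in CORT, 78.5 to 427 CPM (median 188) in the combination and 64.6 to 532 CPM (median 146) in vehicle. Its combination change was 0.07 ± 0.47 (adjusted p = 0.961) and the sum -1.52. Its neighbour Mt2 differed by 0.65 ± 0.52 (adjusted p = 0.59) with a sum of -0.94. For all 3 genes the combination stood near or above vehicle while the sum lay below it, and no departure passed the test (unadjusted p = 0.0436, 0.0256 and 0.0429).

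In a further set of raised genes CORT and ENZA were not told apart. Usp2 (ENSMUSG00000032010, chromosome 9, 44067021 to 44095627 in GRCm38), a deubiquitinase that cycles with the clock, ranged over 68.2 to 93.6 CPM (median 89.3) in the combination, 59.3 to 87.5 CPM (median 72.3) in ENZA, 46.9 to 89 CPM (median 58.9) in CORT and 39.4 to 58.1 CPM (median 42.2) in vehicle. All combination mice exceeded all vehicle mice, and both single-drug medians lay between. It rose by 0.88 ± 0.15 (adjusted p = 0.00173) against a sum of 1.17. Tsku, which encodes a secreted leucine-rich hepatokine, ranged over 242 to 488 CPM (median 348) in the combination and 109.8 to 157 CPM (median 129) in vehicle, without overlap, and rose by 1.45 ± 0.31 (adjusted p = 0.0122). Against vehicle, Tsku differed by 0.90 in CORT and 1.19 in ENZA, neither called (adjusted p = 0.152 and 0.056).

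Smaller rises came close to the sum. Cyp27a1, the sterol hydroxylase of the alternative bile acid pathway, rose by 0.39 ± 0.08 (adjusted p = 0.00579, sum 0.40), with 0.22 in CORT and 0.18 in ENZA. Cpt2, a mitochondrial fatty acid carnitine transferase, rose by 0.37 ± 0.08 (adjusted p = 0.0106, sum 0.42, and adjusted p = 0.0506 with only the 2 compared groups). Aass, the first enzyme of lysine breakdown, rose by 0.55 ± 0.14 (adjusted p = 0.0266, sum 0.60), and Creb3l3, a liver transcription factor of lipid and glucose metabolism, by 0.38 ± 0.10 (adjusted p = 0.0307, sum 0.29). In none of these 4 was either single drug called against vehicle. Aass and Creb3l3 were lost in 6 and 9 of the 32 other settings.

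**Figure D2:**
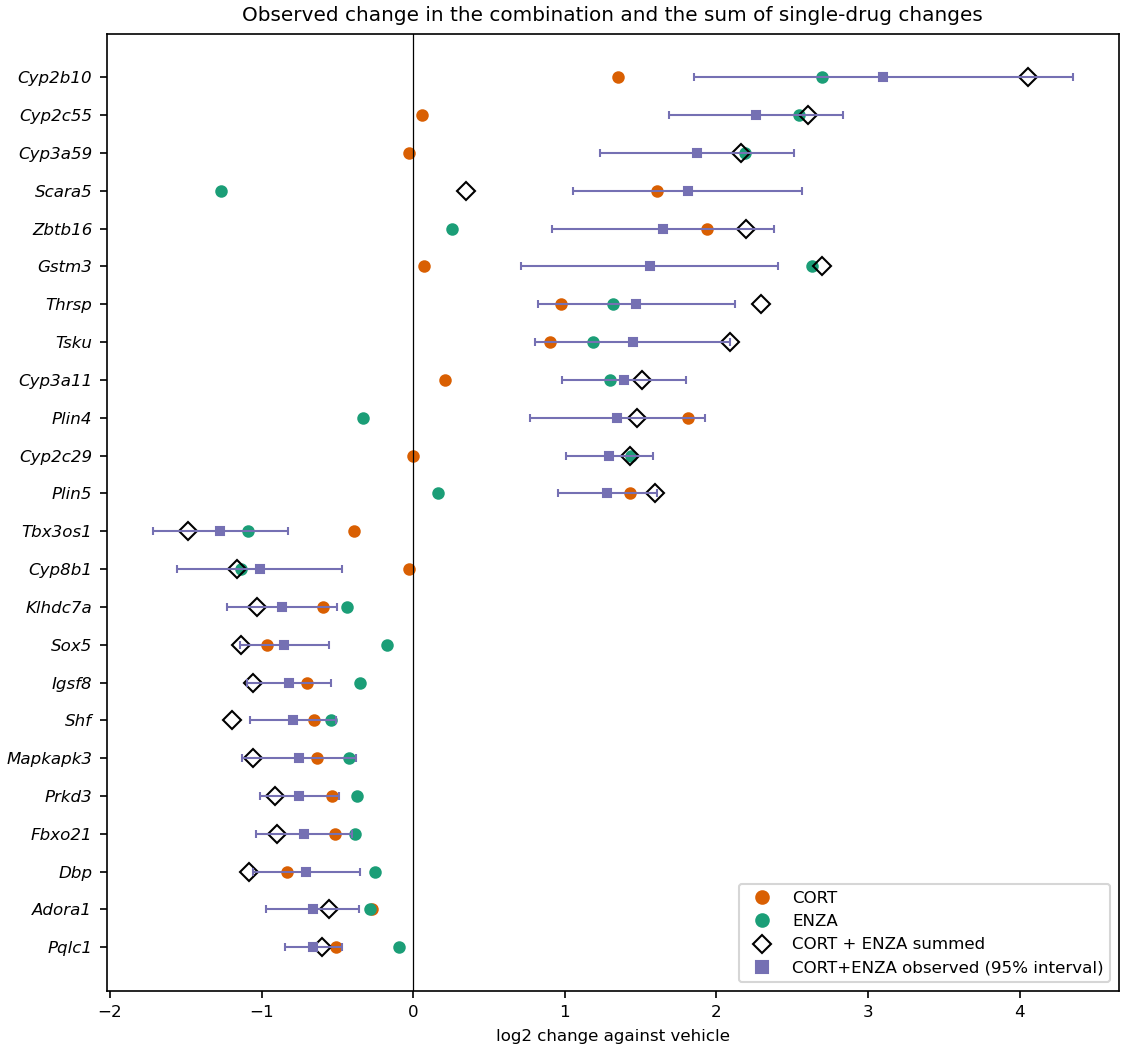
Log2 change against vehicle of the 12 genes of each direction with the largest change in the combination, for CORT, ENZA, their sum and the observed combination with its 95% interval. The sum lies outside the observed interval for Scara5, Gstm3, Thrsp, Shf and Dbp, and in most genes the observed change lies nearer 0 than the sum. That interval leaves out the error of the sum, so a sum outside it does not show a departure. No departure passed the edgeR test (smallest adjusted p over all genes 0.994).

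The 144 genes that fell had a median log2 change of -0.60, beside 0.66 in the 195 that rose. Cyp8b1 (ENSMUSG00000050445, chromosome 9, 121914356 to 121916305 in GRCm38), the sterol 12-hydroxylase that sets the share of cholic acid in bile, ranged over 201 to 391 CPM (median 297) in the combination and 156 to 419.7 CPM (median 279.9) in ENZA. It ranged over 355 to 795 CPM (median 648) in CORT and 475 to 859 CPM (median 549.96) in vehicle. No combination mouse reached a vehicle mouse. Its log2 change was -1.01 ± 0.26 (adjusted p = 0.039, and 0.162 without L19A and L36A), and the call was lost in 10 of the 32 other settings. Tbx3os1, an antisense RNA of the pericentral factor gene Tbx3, changed by -1.27 ± 0.22 (adjusted p = 0.00173), with an uncertain count because the sources used here do not give the strand setting.

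Of the 557 genes lower in CORT than in ENZA, 33 fell with the combination, and the following are among them. Sox5, a transcription factor, ranged over 6.71 to 10.3 CPM (median 9.15) in the combination, 6.43 to 9.37 CPM (median 8.41) in CORT, 11.7 to 20.04 CPM (median 12.7) in ENZA and 12.4 to 19.97 CPM (median 16.5) in vehicle. The combination and CORT mice lay below all vehicle and ENZA mice. The change was -0.85 ± 0.14 (adjusted p = 0.00137). Pqlc1 changed by -0.66 ± 0.09 (adjusted p = 0.000202) and the clock output factor Dbp by -0.70 ± 0.17 (adjusted p = 0.0242, and 0.0752 without L19A and L36A). Nr3c2, the mineralocorticoid receptor gene, which also binds corticosterone, changed by -0.65 ± 0.17 (adjusted p = 0.0412) and was lost in 10 of the 32 other settings.

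In another set of lowered genes the single drugs were not told apart. Shf, an adaptor protein gene, ranged over 5.27 to 7.2 CPM (median 6.13) in the combination, 5.71 to 8.58 CPM (median 6.57) in CORT, 6.51 to 8.11 CPM (median 7.14) in ENZA and 7.77 to 15.9 CPM (median 9.71) in vehicle. All 6 combination mice lay below vehicle and overlapped both single drugs. The change was -0.79 ± 0.14 (adjusted p = 0.00188) against a sum of -1.20. The protein kinase D gene Prkd3 changed by -0.75 ± 0.13 (adjusted p = 0.00139, sum -0.91), Klhdc7a by -0.87 ± 0.18 (adjusted p = 0.00736, sum -1.03) and the F-box gene Fbxo21 by -0.72 ± 0.15 (adjusted p = 0.0102, sum -0.90). The adenosine receptor gene Adora1 ranged over 19.5 to 27 CPM (median 22.9) against 28.6 to 50.5 CPM (median 36.5) in vehicle and changed by -0.66 ± 0.15 (adjusted p = 0.0147), where CORT alone gave -0.27 and ENZA alone -0.28, neither called.

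B cell markers were lower in the combination. Of 6 tested, 4 fell and 0 rose (median -1.20), among them the B cell receptor chains Cd79a (-1.40 ± 0.31, adjusted p = 0.0113) and Cd79b (means of 0.705 against 1.41 CPM, adjusted p = 0.0324) and the IgE receptor Fcer2a (-1.72 ± 0.43, adjusted p = 0.027). All 4 stayed called without L19A and L36A, and all 4 were higher in ENZA than in CORT. The 8 listed B cell genes summed to only 8.97 to 21.3 CPM in the combination (median 12.3) and 14.3 to 26.4 CPM in vehicle (median 20.9), so the summed ranges overlapped. In whole liver, fewer B cells and less of these RNAs per B cell cannot be told apart. The 5 red cell markers tested had 0 members called, a median log2 change of -1.42 and a summed level of 134 to 242 CPM (median 194) in the combination beside 129 to 456 CPM (median 349) in vehicle, and the part of red cells in the B cell result was not tested. Markers of Kupffer, endothelial, stellate, bile duct and T or NK cells had 0 members called, and no neutrophil marker passed the filter, with Ly6g at 0 in every combination and vehicle mouse. Of the pericentral hepatocyte markers Cyp27a1 rose and Lgr5 fell, the latter not called without L19A and L36A, and no periportal marker was called.

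Additivity was tested gene by gene as the observed log2 change minus the sum of both single-drug changes. Of 13733 genes, 0 were called in edgeR, with a smallest adjusted p of 0.994, and 501 (3.65%) had an unadjusted p under 0.05, where 687 would be 5% of the genes. The count was also 0 in DESeq2 (523 genes at an unadjusted p under 0.05) and in limma-voom with sample quality weights (657 genes). The standard error of a departure had a median of 0.19 log2, and in 280 of the 339 genes called in the combination (82.6%) the 95% interval lay within 1 log2 unit of 0 on either side. For the rest a departure of a full log2 unit lies inside the interval. Absence of a call thus does not show that the drugs acted additively.

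**Figure D3:**
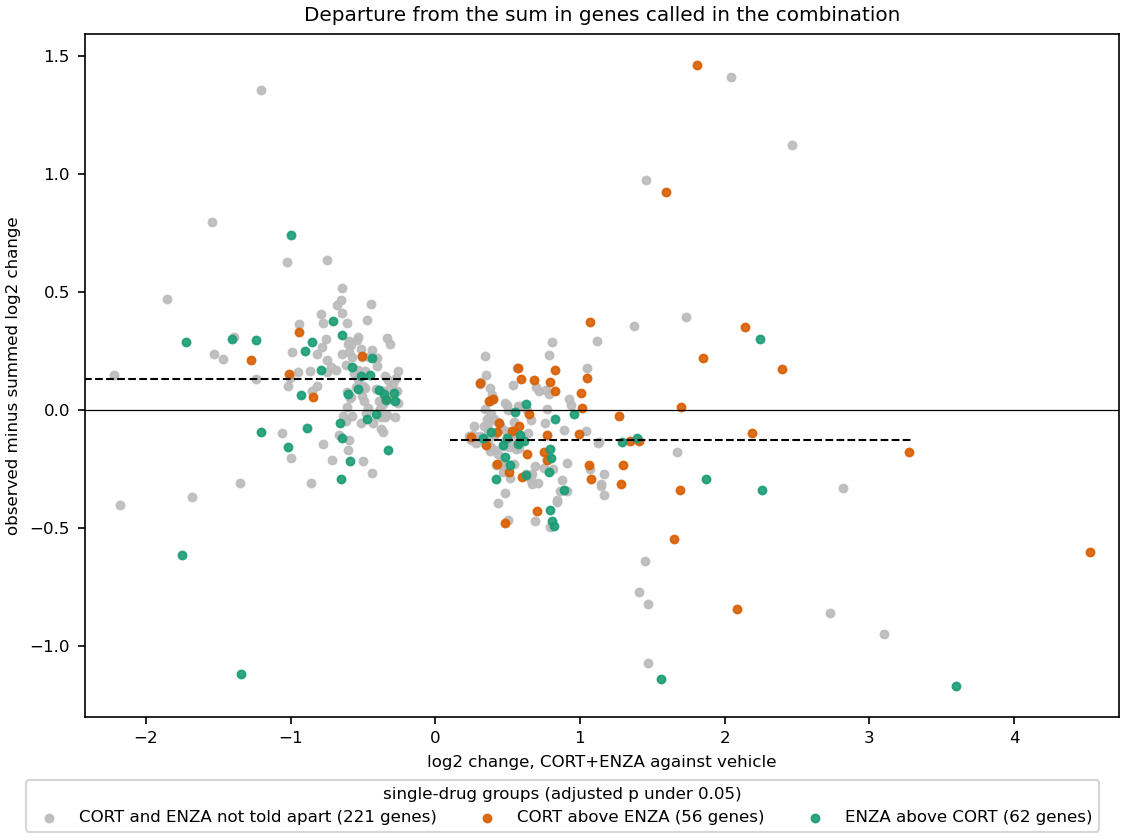
Departure from the sum (observed minus summed log2 change) against the log2 change in the combination for the 339 genes called, coloured by the contrast of CORT with ENZA; dashed lines are the medians of the raised (-0.13) and lowered (0.13) genes. Most raised genes lie below 0 and most lowered genes above 0.

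The direction of the departures in the called genes was uneven. In 142 of the 195 raised genes the observed change was below the sum (median departure -0.13), and in 107 of the 144 lowered genes it was above the sum (median 0.13). Over all genes tested 50.4% were below 0 and the median was -0.002. The combination mean enters the departure and the change that chose these genes with the same sign, and the vehicle mean with opposite signs. With groups of equal size and equal spread the errors of both are thus uncorrelated. Whether the spread was equal was not tested. Genes are not independent of each other, so the counts carry no test. Among the 29 raised genes higher in ENZA than in CORT, 27 had a departure below 0 (median -0.17), and among the 50 higher in CORT 31 did (median -0.10). Without L19A and L36A, 135 of 201 raised genes lay below the sum (median -0.07) and 88 of 127 lowered genes above it (median 0.09). Of the raised genes, 25 of 30 higher in ENZA (median -0.12) and 37 of 63 higher in CORT (median -0.05) then lay below the sum. On the linear CPM scale, vehicle plus both single-drug differences exceeded the observed mean in 129 of the 195 raised genes. This sum exceeded the observed mean in 31 of the 141 lowered genes where it was positive. The share over all genes tested was not computed on this scale.

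The genes with the smallest unadjusted p of the departure were not called in the combination. In the direction above the sum, the immediate early gene Ier2 ranged over 22.4 to 37.1 CPM (median 30.4) in vehicle, 21.3 to 31.6 CPM (median 25.3) in CORT, 17.9 to 24 CPM (median 20.2) in ENZA and 24.5 to 36.6 CPM (median 27.9) in the combination. Both single-drug medians lay below vehicle, ENZA furthest, and the combination overlapped vehicle. Its departure was 0.73 ± 0.17 (unadjusted p = 0.000225). The transglutaminase gene Tgm1 was also lowest in ENZA, at 20.1 to 42 CPM (median 33), 13.5 to 29.4 CPM (median 22.7), 9.4 to 22.2 CPM (median 15) and 15.8 to 25.5 CPM (median 21.8) in vehicle, CORT, ENZA and the combination. Its departure was 0.93 ± 0.28 (unadjusted p = 0.00307). Cep164, a centriole protein gene (0.42 ± 0.12), Tshz2 (0.34 ± 0.10) and Mir6236 (1.89 ± 0.56) completed the 5.

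In the direction below the sum, Mxra8, which encodes a membrane adhesion protein, ranged over 4.86 to 7.89 CPM (median 6.24) in vehicle, 6.87 to 8.39 CPM (median 7.52) in CORT, 6.98 to 8.47 CPM (median 7.2) in ENZA and 5.7 to 6.62 CPM (median 6.13) in the combination. Combination mice lay below every mouse of both single-drug groups and inside the vehicle range. Its departure was -0.52 ± 0.14 (unadjusted p = 0.00079). The p53 target Trp53inp1 departed by -0.77 ± 0.23, the growth factor binding protein gene Igfbp3 by -0.62 ± 0.19, the transcription factor subunit gene Gtf2a1 by -0.43 ± 0.12 and the glycosyltransferase gene B3galnt2 by -0.27 ± 0.08. In all 10 genes both single-drug estimates lay on the same side of vehicle, and every adjusted p was 0.994. The vehicle mean is part of the departure and of both single-drug estimates. Choosing genes by the departure thus favours a shared side, which is no separate result.

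**Figure D4:**
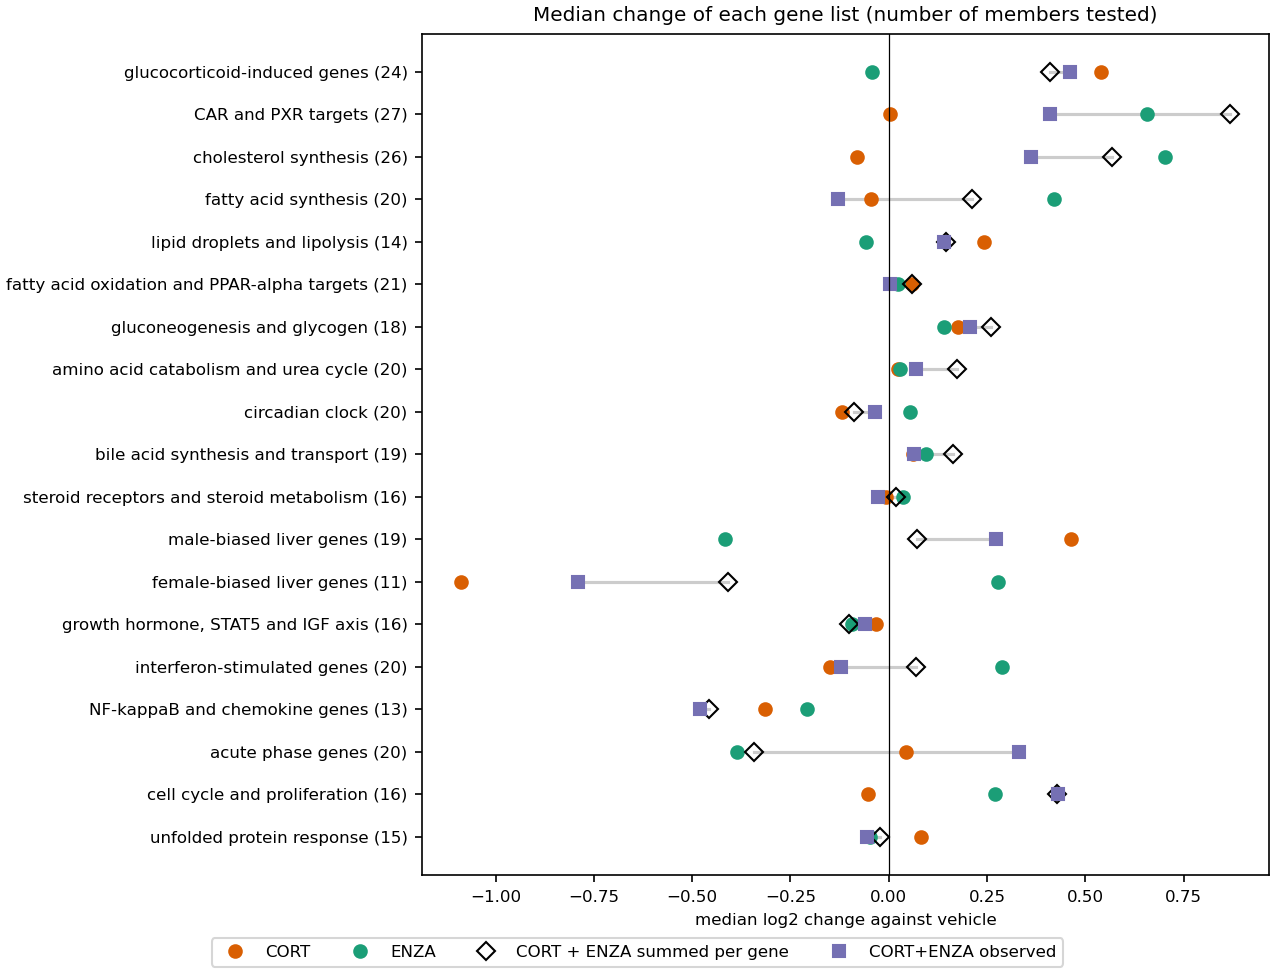
Median log2 change against vehicle of 19 gene lists in CORT, ENZA and the combination, with the median of the per-gene sums; the number of members tested is in brackets. The combination lies below the sum for CAR and PXR targets, cholesterol synthesis and fatty acid synthesis, and above it for acute phase genes.

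The combination in the chronic arm was compared as an effect against its own vehicle group. Of the 195 genes raised acutely, 128 were also raised chronically and 4 were lowered, a share of 65.6% of the acute and 8.58% of the 1491 genes raised chronically, which were 10.5% of the 14138 genes tested. Of the 144 lowered acutely, 76 were lowered chronically and 3 raised, 52.8% of the acute and 5.89% of the 1291 genes lowered chronically (9.13% of those tested). The effect itself differed between the arms in 555 of 14138 genes (3.93%), 339 of them higher in the chronic arm. RNA of the arms was extracted with different kits, so duration and kit cannot be told apart. The share of reads without a unique alignment also differed, at 9.34 to 12.8% in acute and 18.6 to 22.7% in chronic libraries. The part of this in the differences between arms was not tested.

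Several P450 genes changed more in the chronic arm. Cyp2b10 changed by 10.04 ± 0.71 with the chronic combination, from a mean of 0.758 to 818 CPM, 6.94 ± 0.80 above the acute effect (adjusted p = 6.83e-07). Vehicle levels were not alike in the arms, where acute CPM were scaled over the acute libraries and chronic CPM over all 42. The vehicle mean of Cyp2b10 was 10.6 CPM acutely, and that of Cyp3a11 was 3404 CPM acutely and 758 CPM chronically, beside combination means of 8933 and 13692 CPM. For Cyp3a11 the chronic effect exceeded the acute one by 2.78 ± 0.33 (adjusted p = 6.83e-07), for Cyp2c29 by 1.36 ± 0.18 (adjusted p = 6.65e-06) and for Ces2a by 1.18 ± 0.14 (adjusted p = 6.83e-07). Nr1i2, in contrast, changed by 0.85 ± 0.13 chronically, and the difference between arms was 0.06 ± 0.19 (adjusted p = 0.926). Plin5 and Hmgcs1 gave differences of -0.62 ± 0.28 and -0.11 ± 0.38 (adjusted p = 0.246 and 0.926). Some genes with no acute call moved chronically: Slc18a1, a vesicular amine transporter gene, by 1.66 ± 0.13 and Akr1c19, an aldo-keto reductase gene, by 1.67 ± 0.14 (adjusted p of the differences from the acute effect 4.31e-07 and 6.83e-07). Gcnt4, a glycosyltransferase gene, turned direction, from 0.60 ± 0.16 acutely (adjusted p = 0.047, lost in 19 of the 32 other settings) to -0.81 ± 0.17 chronically. Its acute call was also lost without L19A and L36A (adjusted p = 0.0596 in edgeR), 1 of those settings.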

How the data were processed

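The submitters' processing notes name STAR 2.7.3a, HTSeq 0.12.4, FastQC, MultiQC and build mm10 (GRCm38). The deposited values are raw counts per gene, 1 table per arm, and the sources used here give no annotation release or strand setting. The 5 summary lines were left out. In R 4.3.3, edgeR 4.0.16 (filterByExpr with minimum count 10 and minimum total 15, TMM, robust quasi-likelihood fit) was applied to all 24 acute libraries with group means, which left 13733 genes, and to all 42 libraries for the difference between arms (14138 genes). Benjamini-Hochberg adjustment ran over all genes of a contrast, with calls at 0.05. The departure is CORT_ENZA - CORT - ENZA + Vehicle on the log2 scale. The code was tested on simulated data.

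Members, gene lists and the rule for named genes were chosen with earlier results of these data known. Genes named were called, non-overlapping and at 5 CPM or more (12 per direction by size), or were the 3 of each list with the smallest p, a fixed set of receptors and targets, the 5 departures and 4 arm differences per sign with the smallest p, or the 8 widest gaps between CORT and ENZA per direction. Predicted genes are left out, and some other genes of these lists are not reported here. Symbols matched 55394 of 55573 IDs, coordinates are from GENCODE M21, and genes with 10% or more shared 50-base stretches are called uncertain. Genes named outside the naming rule, such as Cyp3a25, Cyp2c50 and Sult1d1, were not checked for shared stretches. Alternatives were DESeq2 1.42.0, voom in limma 3.58.1 with a quality weight per sample, RLE size factors, other filters, a fit of 12 libraries, number sets as a block and libraries left out. Each library is a separate mouse in the labels, which do not say how mice were housed or batched, so p-values measure the spread between these mice.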

Additional observations from a re-analysis of the deposited data

Results flagged for a closer look

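Levels of the genes with per-mouse values were screened for 1 mouse far from the other 5 of its group, in 120 sets of 6 vehicle or combination mice. Dixon's 95% critical value was passed in 12, and chance passes it in about 1 of 20 sets. The isolated mouse was the highest in these sets. Cep164 was 23.1 CPM in vehicle mouse L19A, against 16.8 to 17.5 CPM in the other 5 mice. Mir6236 was 32.4 CPM in vehicle mouse L13A, against 4.32 to 13.1 CPM in the other 5 mice. Mvk was 51.3 CPM in combination mouse L24A, against 31.8 to 37.1 CPM in the other 5 mice. Per1 was 86.5 CPM in vehicle mouse L1A, against 20.1 to 38.6 CPM in the other 5 mice. Tbx3os1 was 28.6 CPM in vehicle mouse L19A, against 10.1 to 13.1 CPM in the other 5 mice. It was the lowest in the following. Cyp27a1 was 536 CPM in vehicle mouse L31A, against 648 to 699 CPM in the other 5 mice. Dbp was 68.8 CPM in combination mouse L30A, against 122 to 143 CPM in the other 5 mice. Fkbp5 was 129.7 CPM in combination mouse L36A, against 175 to 195 CPM in the other 5 mice. Gtf2a1 was 10.9 CPM in vehicle mouse L1A, against 12.1 to 12.8 CPM in the other 5 mice. Nr3c1 was 39 CPM in vehicle mouse L19A, against 63 to 75.4 CPM in the other 5 mice. Pqlc1 was 58.9 CPM in vehicle mouse L31A, against 71.4 to 76.9 CPM in the other 5 mice. Saa4 was 479 CPM in combination mouse L18A, against 719 to 783 CPM in the other 5 mice. Vehicle mouse L19A accounted for 3 of the 12 and combination mouse L36A for 1. The part of these mice in the results above is given by the values without L19A and L36A.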

How the results depend on the processing

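For the combination against vehicle, the count of 339 became 584 with DESeq2, 650 with limma-voom and sample quality weights, 203 with only the compared groups in the fit, 336 with RLE size factors, 261 with no filter on low counts and 338 with a filter of 1 CPM in 6 libraries. Leaving out each acute library in turn gave 207 to 413. The contrast of CORT with ENZA gave 1663 with that weighted limma-voom fit and 709 to 1366 with 1 library left out, beside 1099. The difference between arms gave 1431 with it, beside 555. Fits with libraries left out hold fewer samples, and the cause of these shifts was not tested. The departure from the sum had 0 calls under every setting run. Of 44 genes chosen by the naming rule and called in the combination, 28 kept their call under all 32 other settings. Of the same 44, 16 lost it under at least 1, and 0 reversed. Called genes named outside that rule, such as Por, Sqle and Cd79a, were not followed over all settings. No mouse number repeats between groups of 1 arm. Sets of consecutive numbers, which the labels do not call a batch, gave 427 calls as a replicate block, and deviations of same-set mice correlated at a mean r of 0.0823 (36 pairs, -0.192 to 0.347) beside -0.0135 for other pairs. The part of depth and expression level in the width of the departure intervals was not tested.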

Other observations

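Gene lists not described above had few calls in the combination. Of 19 male-biased liver genes 1 rose, Cyp4a12b (49.4% shared sequence, so uncertain), with a list median of 0.27, beside 0.46 in CORT and -0.42 in ENZA. Of 11 female-biased genes 1 rose, the flavin monooxygenase gene Fmo2, while the list median was -0.79, so the gene called and the list median differ in sign. Both calls were lost without L19A and L36A. Of 20 amino acid genes Aass rose and the branched-chain transaminase gene Bcat2 fell, with a median of 0.07. The Bcat2 call was lost in 21 of 32 other settings, among them the edgeR fit without L19A and L36A (adjusted p = 0.117). Growth hormone and STAT5 genes (16 tested, median -0.06), interferon-stimulated genes (20, median -0.12), NF-kappaB and chemokine genes (13, median -0.48), cell cycle genes (16, median 0.43) and unfolded protein response genes (15, median -0.06) had 0 members called by edgeR. The median over all genes tested was -0.01.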
